A study of Mus musculus with 6 samples.

Results

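Somites are blocks of paraxial mesoderm that bud from the presomitic mesoderm and later give rise to vertebrae, ribs, muscle and dermis. The 10 genes described here encode transcription factors that are known as marks of this process: Foxc1, Foxc2, Meox1, Meox2, Tcf15, Pax3, Pax1, Pax9, Uncx and Tbx18. They were picked by name from the 35506 genes of a tailbud RNA-sequencing table, and each matched 1 row of it. As background, Foxc1 and Foxc2 (forkhead proteins) act already in the presomitic mesoderm and help to form somites, and Pax3 (paired box) is present in anterior presomitic mesoderm, in the dermomyotome and in the dorsal neural tube. Meox1 and Meox2 (homeobox) and Tcf15 (basic helix-loop-helix, also called paraxis) mark the epithelial somite. Pax1 and Pax9 (paired box) mark the sclerotome, the part of the somite that forms vertebrae and ribs, and Uncx (homeobox) and Tbx18 (T-box) mark its caudal and rostral parts.

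The libraries came from tailbuds of 6 mouse embryos with 8 somites on the FVB/NJ background, 3 wild type (Smchd1+/+, called WT) and 3 homozygous for MommeD43, a missense allele of the chromatin protein SMCHD1 from a chemical mutagenesis screen. The embryos were at embryonic day 8.5. Each library was a single embryo, and each genotype had 1 male (replicate 1) and 2 females (replicates 2 and 3). By the labels both males came from a single mother, and the 4 females from 4 other mothers. Per the study's methods the tailbud was cut off behind the last formed somite, at a distance meant to leave out the somite about to form. The comparison asks whether the mutant protein changes gene expression in tissue that holds the progenitors of the vertebral column.

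Library totals recovered from the values ranged from 10957916 to 47298348 reads. The source field of the labels names neural stem cells while the tissue field names tailbud, so both kinds of marker were read. T (Brachyury), a factor of mesoderm progenitors, averaged 141 ± 40.9 RPKM in WT tailbuds against 134 ± 12.0 RPKM in the mutants (SD, n = 3 each), where RPKM is a count of reads scaled to exon length and library size. Of the neural factors, Sox1 and Pax6 were at 0.174 and 0.279 RPKM in WT, while Sox2 and Sox3, which progenitors of the tailbud also express, were at 13.9 and 4.58 RPKM. All 13 genes of a list for presomitic mesoderm and progenitors had reads. Smchd1 itself ranged from 7.15 to 8.58 RPKM over the 6 libraries, but a missense allele cannot be checked by its transcript level.

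The tailbuds held 6 of the 10 factors at low levels, the sclerotome mark Pax9 among them, and the other 4 hardly or not at all, among them the somite mark Meox2. Foxc1, Foxc2, Meox1 and Pax3 were read in each library at 0.889 to 2.62 RPKM, Tcf15 and Pax9 at 0.178 to 0.745 RPKM, and Meox2, Tbx18 and Pax1 at no more than 0.0774 RPKM. Uncx had no read in any library. Of the 10 genes, 6 passed the filter on low values and were tested. The mean level of Foxc1, the most abundant member, exceeded that of 32.7% of the 13617 autosomal genes tested, and that of Pax9 exceeded 10.3% of them. Summed over the 10 members, the level ranged from 6.40 to 8.55 RPKM in WT and from 6.44 to 8.37 RPKM in MommeD43 embryos. In bulk tissue, fewer cells of a type and less RNA per cell cannot be told apart.

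**Figure D1:**
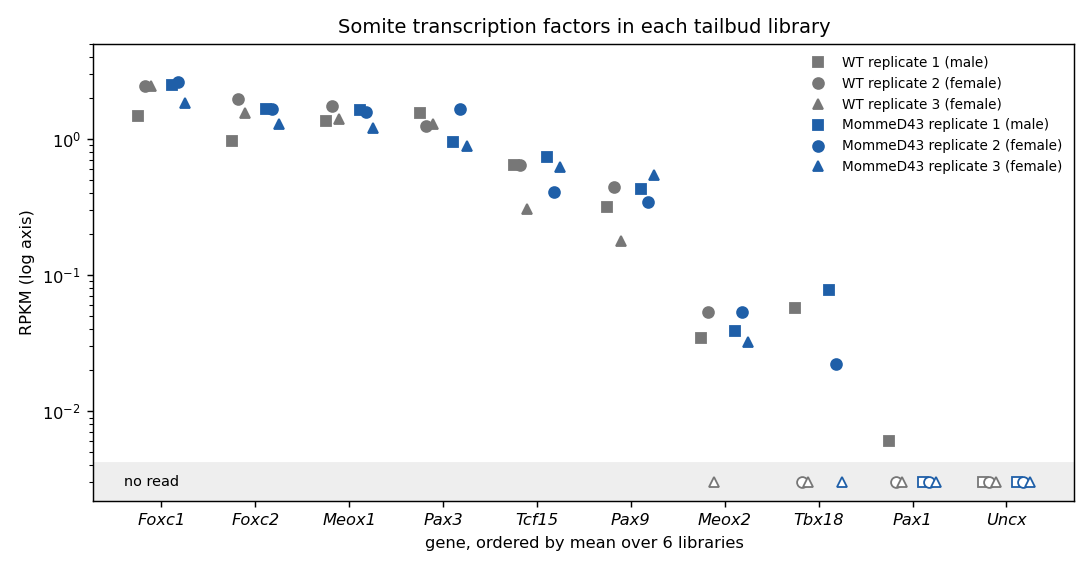
RPKM (log axis) of the 10 somite transcription factors in each of the 6 tailbud libraries, with WT in grey and MommeD43 in blue, and symbols for the replicate. Open symbols in the grey band mark libraries without a read, which include all 6 for Uncx and 5 for Pax1, while Foxc1, Foxc2, Meox1 and Pax3 lie near or above 1 RPKM in both groups.

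The single-exon gene Foxc1 occupies positions 31806633 to 31812476 of chromosome 13 (GRCm38, as for all positions here). In WT replicates 1, 2 and 3 it was at 1.49, 2.46 and 2.44 RPKM, from 319, 339 and 237 reads. In MommeD43 replicates 1, 2 and 3 it was at 2.48, 2.62 and 1.86 RPKM, from 159, 723 and 142 reads. The WT male was thus the lowest of the 6. Its exact (Clopper-Pearson) 95% confidence interval of 1.33 to 1.66 RPKM lay below those of WT replicates 2 and 3. It met that of MommeD43 replicate 3, 1.56 to 2.19 RPKM, and the groups overlapped. Such intervals cover counting error only.

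Foxc2, on chromosome 8 from 121116171 to 121118895 also has a single exon. It was at 0.962, 1.96 and 1.55 RPKM in WT replicates 1, 2 and 3, and at 1.67, 1.67 and 1.29 RPKM in MommeD43 replicates 1, 2 and 3. The WT male was again the lowest library, but the highest was WT replicate 2, and the groups overlapped. The ratio of Foxc1 to Foxc2 within a library stayed between 1.25 and 1.58, with a geometric mean of 1.45 in WT and 1.496 in mutant embryos. The log2 difference in this ratio of 0.042 did not exceed the spread between embryos (exact permutation test, two-sided, p = 0.9, where 3 against 3 cannot go below 0.1). Of the 4 ratios of related members that were planned, this was the 1 that could be tested, since in the others a member had too few reads.

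Meox1, on chromosome 11 from 101877510 to 101894374, was the most even of the abundant members. It was at 1.35, 1.75 and 1.40 RPKM in the WT libraries and at 1.64, 1.59 and 1.20 RPKM in the MommeD43 libraries. The highest library exceeded the lowest by 1.46-fold, and the groups overlapped. Its close relative Meox2, on chromosome 12 from 37108540 to 37179534, had 14 reads in all, against 497 for Meox1 from a similar length of exon (2360 and 2228 bases). These were 3, 3 and 0 reads in WT and 1, 6 and 1 reads in MommeD43 libraries, so that no group stood apart. The ratio of Meox2 rates, MommeD43 to WT, was 1.44 with an exact 95% interval of 0.437 to 5.02, too wide to show a change of a few fold. That interval pools the reads of each group and leaves out the spread between embryos.

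Tcf15, on chromosome 2 from 152143561 to 152149097, rested on 78 reads in all, with exons that span 980 bases and a mean level of 0.562 RPKM. It had 23, 15 and 5 reads in WT replicates 1, 2 and 3, or 0.641, 0.648 and 0.307 RPKM. It had 8, 19 and 8 reads in MommeD43 replicates 1, 2 and 3, or 0.745, 0.410 and 0.624 RPKM. The lowest and the highest value were both from shallow libraries, and their intervals of 0.0997 to 0.716 and 0.322 to 1.468 RPKM overlapped.

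Pax3, on chromosome 1 from 78101267 to 78197134, was at 1.54, 1.24 and 1.29 RPKM in WT replicates 1, 2 and 3. In MommeD43 replicates 1, 2 and 3 it was at 0.959, 1.65 and 0.889 RPKM. MommeD43 replicates 1 and 3 thus lay below each WT library, and MommeD43 replicate 2, the deepest library with 484 Pax3 reads, lay above them all. The exact interval of that library, 1.51 to 1.81 RPKM, did not meet those of the other MommeD43 libraries, 0.740 to 1.22 and 0.696 to 1.12 RPKM. Pax3 is also a gene of the dorsal neural tube. In a list of 11 genes of neural tube and neural crest, 10 had a read, Foxd3 had none, and the summed level was 113 to 143 RPKM in WT and 116 to 129 RPKM in MommeD43 libraries. The highest sums, 143 and 129 RPKM, were in WT replicate 1 and MommeD43 replicate 2, the same libraries that were highest for Pax3. Most of this sum was Msx1, which is also a gene of posterior mesoderm. Other genes of the list were mixed. Among WT libraries, replicate 1 was lowest for Sox1 and Pax6 (0.113 and 0.224 RPKM) and highest for Sox2 and Sox3 (15.4 and 5.01 RPKM). Among MommeD43 libraries, replicate 2 was highest for Sox1 and Pax6 (0.337 and 0.2495 RPKM). The part of neural cells in the Pax3 values was not tested.

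**Figure D2:**
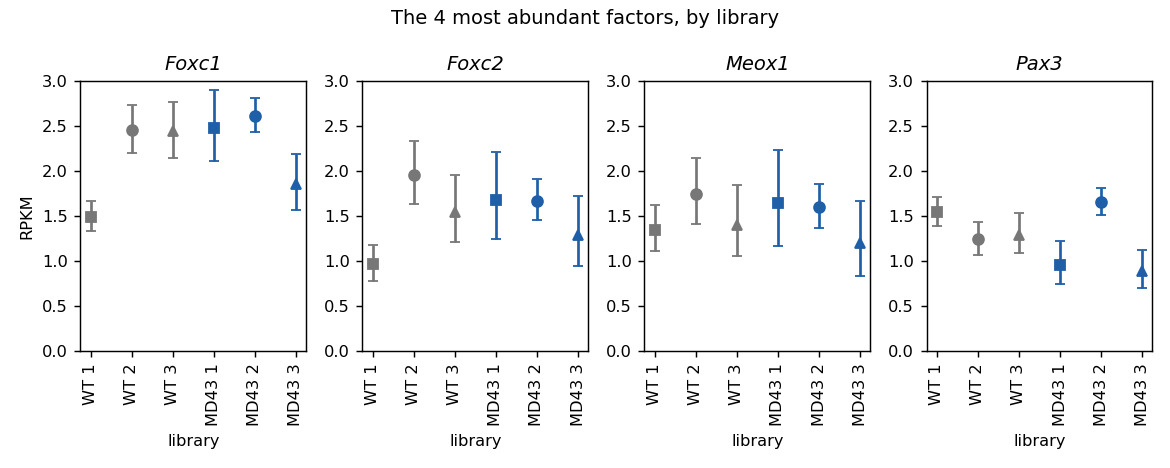
RPKM of Foxc1, Foxc2, Meox1 and Pax3 by library, with exact 95% intervals as bars (counting error only), WT in grey and MommeD43 (MD43) in blue. WT replicate 1 is lowest for Foxc1 (1.49 RPKM) and Foxc2 (0.962 RPKM), and MommeD43 replicate 2 is highest for Pax3 (1.65 RPKM).

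The related paired-box genes of the sclerotome, Pax1 and Pax9, differed widely in reads. Pax9, on chromosome 12 from 56691767 to 56712822, had 270 reads and was present in each library. It was at 0.319, 0.444 and 0.178 RPKM in the WT libraries and at 0.433, 0.347 and 0.544 RPKM in the MommeD43 libraries. The highest and the lowest libraries were MommeD43 replicate 3 and WT replicate 3, but the other 4 were intermixed. Pax1, on chromosome 2 from 147361925 to 147393295, had 1 read, in WT replicate 1. For Pax1, 3 reads would make 0.0141 RPKM in the deepest and 0.0609 RPKM in the shallowest library. The exact 95% upper bounds of Pax1 in these libraries were 0.0174 and 0.0749 RPKM. Pax9 also has roles outside the somite, in endoderm and facial mesenchyme, and which cells its reads came from was not tested. Slc25a21 on the other strand covers 3.74% of the Pax9 exons and had 4 to 22 reads in a library, and whether counting used the strand is not given in the sources used here.

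The marks of the caudal and rostral parts of the somite were at the limit of detection. Uncx, on chromosome 5 from 139543494 to 139548179, had 0 reads among 76860433 in WT and 71344475 in MommeD43 libraries. The floor of 3 reads was at 0.0202 RPKM in the deepest and 0.0873 RPKM in the shallowest library. Exact 95% upper bounds for a count of 0 were 0.0249 and 0.107 RPKM there. Tbx18, on chromosome 9 from 87702800 to 87731260, had 10, 0 and 0 reads in WT and 4, 5 and 0 reads in MommeD43 libraries. Both male libraries and 1 female library thus held Tbx18 reads, and 3 libraries held none. The rate ratio of Tbx18, MommeD43 to WT, was 0.970 with an exact interval of 0.349 to 2.66. This interval pools the reads of each group and covers counting error only, not the spread between embryos. D030062O11Rik on the other strand covers 20.6% of the Tbx18 exons, and it had 4 reads in WT replicate 1 and none in the others. No fold change was computed for Uncx or Pax1, as both groups were at or below the floor.

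In order of level over the 6 libraries, the members ran from Foxc1 through Foxc2, Meox1, Pax3, Tcf15, Pax9, Meox2, Tbx18 and Pax1 to Uncx. Foxc1 exceeded Foxc2 in 6 of 6 libraries, whereas Foxc2 exceeded Meox1 in 5 and Meox1 exceeded Pax3 in 4, with overlapping ranges, so that these last 3 were not separated beyond their spread. Pax3 lay above Tcf15, and Pax9 above Meox2, in 6 of 6 libraries without overlap of their ranges. Tcf15 exceeded Pax9 within each library, although their ranges over libraries overlapped. The lowest members were compared only with their neighbours in this order. Meox2 exceeded Tbx18 in 3 of 6 libraries, Tbx18 exceeded Pax1 in 3 and Pax1 exceeded Uncx in 1, with overlapping ranges.

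The start sites of the most abundant member, of the paired-box pair that differed most, and of Tbx18 are shown for comparison. The sequences, credited to RefSeq on GRCm38.p6, run 5′ to 3′ on the strand of the gene and end where the RefSeq transcript or an annotated exon begins. Capitals mark matches on either strand to 4 short motifs. These were TATAAA for the TATA box and, for the box that the factor NF-Y binds, CCAAT. The other motifs were GGGCGG for the GC box and, for the core of T-box sites, AGGTGT, and no matches overlapped in these windows.
Foxc1, chr13:31806396-31806632, plus strand: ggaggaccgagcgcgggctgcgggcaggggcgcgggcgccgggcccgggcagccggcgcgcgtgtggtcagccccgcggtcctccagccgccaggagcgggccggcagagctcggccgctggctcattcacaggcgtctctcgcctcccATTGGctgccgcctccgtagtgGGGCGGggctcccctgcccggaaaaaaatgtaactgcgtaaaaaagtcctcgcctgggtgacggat
Pax9, chr12:56695221-56695470, plus strand: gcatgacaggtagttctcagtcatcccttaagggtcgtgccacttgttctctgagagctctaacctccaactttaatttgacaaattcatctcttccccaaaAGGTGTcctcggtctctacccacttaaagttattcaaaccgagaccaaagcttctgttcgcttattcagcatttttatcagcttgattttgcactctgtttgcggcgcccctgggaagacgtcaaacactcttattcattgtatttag
Pax1, chr2:147364744-147364993, plus strand: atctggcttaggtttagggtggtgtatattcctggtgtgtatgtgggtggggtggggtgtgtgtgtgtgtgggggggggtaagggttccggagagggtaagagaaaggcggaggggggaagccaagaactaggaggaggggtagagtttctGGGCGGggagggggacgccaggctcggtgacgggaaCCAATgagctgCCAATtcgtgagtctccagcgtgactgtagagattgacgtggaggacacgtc
Tbx18, chr9:87731261-87731510, minus strand: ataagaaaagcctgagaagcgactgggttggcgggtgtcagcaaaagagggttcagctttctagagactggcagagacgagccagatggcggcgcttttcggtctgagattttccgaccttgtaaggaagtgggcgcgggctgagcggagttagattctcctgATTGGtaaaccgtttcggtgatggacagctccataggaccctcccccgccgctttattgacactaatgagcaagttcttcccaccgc
Entries were matched for 6 of the 10 members (Foxc1, Meox2, Pax1, Pax9, Tbx18 and Uncx). In the full 250 bases before the RefSeq start, of which 13 are exon in GENCODE and not shown, Foxc1 had 29 CpG dinucleotides, more than 93.2% of the 32841 windows in the table, whose median was 6. Pax9 had 7 and Pax1 10, more than 53.7% and 62.2% of windows, and Tbx18 had 15. The T-box core was found in the Pax9 window and in none of the other 5, against 11.8% of all windows. The NF-Y box was found in Foxc1, Pax1, Tbx18 and Uncx (33.9% of all windows) and the GC box in Foxc1, Pax1 and Meox2 (32.7%). The TATA box was found in Meox2 (12.4%). All 250 bases of the Uncx window, which is not shown, lay in annotated exons of Uncx. The Pax9 and Pax1 windows lay inside the annotated spans of their genes, though not in exons.

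None of the 6 tested members differed between MommeD43 and WT embryos beyond the spread between embryos. In limma, a linear model fitted over all autosomal genes with Benjamini-Hochberg adjustment, each had an adjusted p of 0.999, and 0 of 6 reached an unadjusted p under 0.05. Over all 13617 autosomal genes, 0 genes (0%) passed an adjusted p of 0.05 and 327 (2.4%) had an unadjusted p under 0.05. The groups did not overlap for 0 of the 6 members, against 7.08% of all genes. The median log2 fold change of the 6 was 0.12, with 4 positive and 2 negative, beside 0.0025 for all genes.

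Pax9 had the largest difference of the 6, with a mean of 0.314 ± 0.133 RPKM in WT tailbuds against 0.441 ± 0.0987 RPKM in the mutants (SD, n = 3 each, also below). Its log2 fold change was 0.57 ± 0.39 (SE), with a 95% interval from -0.32 to 1.45. Without WT replicate 2 it was 0.86, and without WT replicate 3 it was 0.21. The groups did not overlap without WT replicate 2, but 2 libraries separate from 3 more readily than 3 from 3. The share of all genes without overlap was not computed for fits that left out a library. Pax3 averaged 1.36 ± 0.163 RPKM in WT against 1.17 ± 0.423 RPKM in the mutants, and its log2 fold change was -0.27 (interval -0.86 to 0.32). Without MommeD43 replicate 2 the Pax3 log2 fold change was -0.55, the groups no longer overlapped and the unadjusted p was 0.0295 (limma), with an adjusted p of 0.995. In that fit 425 of 13617 genes had an unadjusted p under 0.05, and 0 passed the adjusted threshold. Tcf15, at 0.532 ± 0.195 and 0.593 ± 0.170 RPKM, had a log2 fold change of 0.19 (interval -0.66 to 1.04), which was -0.16 without WT replicate 3.

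The intervals were narrower for the more abundant members. Meox1 averaged 1.50 ± 0.216 RPKM in WT against 1.48 ± 0.241 RPKM in the mutants, and its interval went from 0.729-fold to 1.32-fold. Its log2 fold change of -0.026 was 0.089 without WT replicate 2 and 0.12 without MommeD43 replicate 3. Foxc1 was at 2.13 ± 0.553 and 2.32 ± 0.405 RPKM (0.767-fold to 1.59-fold), and Foxc2 at 1.49 ± 0.500 and 1.54 ± 0.220 RPKM (0.704-fold to 1.64-fold). A 2-fold change in either direction thus lay outside the intervals of these 3 genes, and outside that of Pax3 (0.552-fold to 1.24-fold). A 2-fold increase lay inside those of Tcf15 and Pax9, whose upper bounds were 2.06-fold and 2.74-fold. The log2 fold changes of Foxc1 and Foxc2, 0.14 and 0.10, were -0.094 and -0.18 without WT replicate 1. That of Foxc1 was 0.30 without MommeD43 replicate 3. The groups of Foxc1 did not overlap in that fit, for which the share of all genes was not computed.

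**Figure D3:**
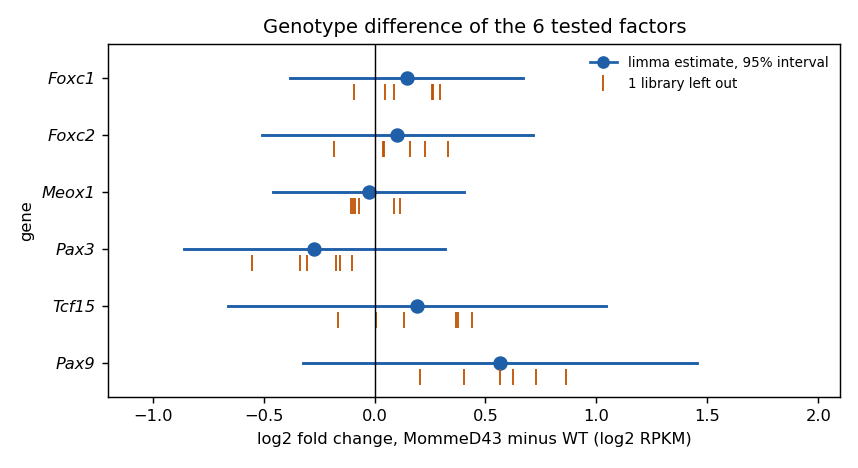
Log2 fold change (MommeD43 minus WT) of the 6 tested factors, with the limma estimate and its 95% interval in blue and the estimates with 1 library left out as orange ticks. Each interval includes 0, and the estimates for Foxc1, Foxc2, Meox1 and Tcf15 change sign when single libraries are left out.

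The spread of the members between embryos was set beside read sampling. The ratio of variance to mean of the reads within groups, which is near 1 for counting error alone and rises with the number of reads, was 1.24 for Tcf15 and 1.55 for Meox1. It was 3.997 for Pax9, 7.84 for Foxc2, 11.2 for Pax3 and 16.4 for Foxc1, beside a median of 4.19 over all genes tested. The median number of reads per library over those genes was 614, against 320 for Foxc1, the member with most reads. The ratio therefore does not rank the members by their spread between embryos. Foxc1 and Foxc2 varied more among WT embryos (SD of log2 values 0.41 and 0.52) than among MommeD43 embryos (0.27 and 0.22). Pax3 showed the opposite, with 0.17 in WT and 0.49 in MommeD43. In WT and MommeD43 the SDs were 0.62 and 0.44 for Tcf15, 0.67 and 0.32 for Pax9, and 0.20 and 0.25 for Meox1. The median SD over all genes tested was 0.13 in WT and 0.13 in MommeD43. These SDs include read sampling, each rest on 3 embryos and were not compared by a test.

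For Foxc1 and Foxc2 the WT male was the lowest library, while the MommeD43 male lay within the range of the 4 females. The counting interval of the WT male met that of MommeD43 replicate 3 for both genes. For Foxc2 these were 0.779 to 1.17 and 0.944 to 1.72 RPKM. Between the male pair, the log2 fold change of MommeD43 against WT was 0.80 for Foxc2 and 0.74 for Foxc1, and among females it was -0.25 and -0.15. With 1 male per genotype the fit has no spread among males: it takes the spread from the females (2 residual degrees of freedom, moderated over genes) and assumes that a lone male varies like them, so that a single odd library can give such a difference. The difference between the male pair and the females was 1.05 ± 0.38 (SE) for Foxc2, with an unadjusted p of 0.0309 and an adjusted p of 0.418 (limma). For Foxc1 it was 0.89 ± 0.34, with 0.0377 and 0.438. At an unadjusted p under 0.05 these were 2 of the 6 members, against 10.8% of all genes, and with voom on recovered reads the Foxc2 p was 0.0592 and 1 member was left. At an adjusted p under 0.05 there were 0, against 0.272% of all genes. Sex, mother and embryo cannot be told apart here. For Pax3 the male pair gave -0.69 and the females -0.062, and for Meox1 0.28 and -0.18. Tcf15 (0.22 and 0.18) and Pax9 (0.44 and 0.63) had the same sign in both.

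Foxc1 and Foxc2 are also expressed in endothelium, so endothelial genes were set beside them. Of a list of 9 genes of endothelium and blood, all had reads, and their summed level ranged from 30.2 to 462 RPKM in WT and from 48.0 to 214 RPKM in MommeD43 libraries. The most abundant, the embryonic globin gene Hbb-bh1, ranged from 2.63 to 299.9 RPKM. Of the 8 tested, 1 had an unadjusted p under 0.05, the endothelial receptor gene Tie1, at 2.56 ± 0.455 RPKM in WT against 3.5999 ± 0.753 RPKM in the mutants (log2 fold change 0.48, adjusted p = 0.999, limma), with overlapping groups. Its 5 endothelial genes alone (Kdr, Cdh5, Pecam1, Tie1 and Sox18, a split chosen after seeing the values) summed to 22.3, 36.3 and 32.6 RPKM in WT replicates 1, 2 and 3. In MommeD43 replicates 1, 2 and 3 they summed to 39.8, 29.0 and 30.2 RPKM. The WT male, lowest for Foxc1 and Foxc2, was thus also lowest for these 5 genes. Tal1, of the same list, was lower in MommeD43 replicates 2 and 3 (4.56 and 3.77 RPKM) than in the WT male (4.63 RPKM). Sums in the WT male were lowest for hindgut and notochord (167 RPKM), lateral and intermediate mesoderm (140 RPKM) and later sclerotome (25.5 RPKM). That library was not the lowest for anterior presomitic mesoderm, dermomyotome and myotome, patterning signals, neural tube or yolk sac. It was highest for the genes of presomitic mesoderm and progenitors, with T at 188 RPKM against 117 to 141 RPKM in the other 5 libraries. Their part in the Foxc values was not tested.

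Genes of the steps before and after somite formation place these levels. The 13 genes of presomitic mesoderm and progenitors summed to 673 to 915 RPKM in WT and 685 to 817 RPKM in MommeD43 libraries, far above the members. The most abundant was Cdx2, a factor of posterior identity, at 166 and 164 RPKM in WT and MommeD43. Of 13 tested, 1 reached an unadjusted p under 0.05, Hes7, an oscillating repressor of the segmentation clock, with 20.8 ± 3.53 RPKM in WT against 29.2 ± 7.42 RPKM in the mutants (log2 fold change 0.47, adjusted p = 0.999, limma). The groups overlapped for Hes7.

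Of 10 genes of anterior presomitic mesoderm, where the next boundary is set, 9 had reads and 6 were tested. Hes1, a Notch target, was the most abundant at 22.2 and 24.8 RPKM. Mesp2, a factor that sets the boundary and the rostral part of the coming somite, had 7 reads in all and Ripply2, which ends Mesp2 activity, had 14. The single gene at an unadjusted p under 0.05 was Efnb2, an ephrin ligand at boundaries, with a log2 fold change of 0.27 (adjusted p = 0.999, limma). Its groups overlapped too.

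Genes that follow somite formation were mixed. Of 12 genes of later sclerotome, 10 had reads and 9 were tested, and 0 reached an unadjusted p under 0.05. Twist1, a mesenchymal factor not confined to sclerotome, was the most abundant at 11.9 and 10.5 RPKM. Of 13 genes of dermomyotome and myotome, 12 had reads and 6 were tested, with 0 at an unadjusted p under 0.05. Six4, a homeobox factor with a wider expression, led with 4.25 and 4.01 RPKM. The summed level of this list, 6.53 to 7.72 RPKM in WT and 6.39 to 7.61 RPKM in MommeD43 libraries, was close to that of the 10 members.

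**Figure D4:**
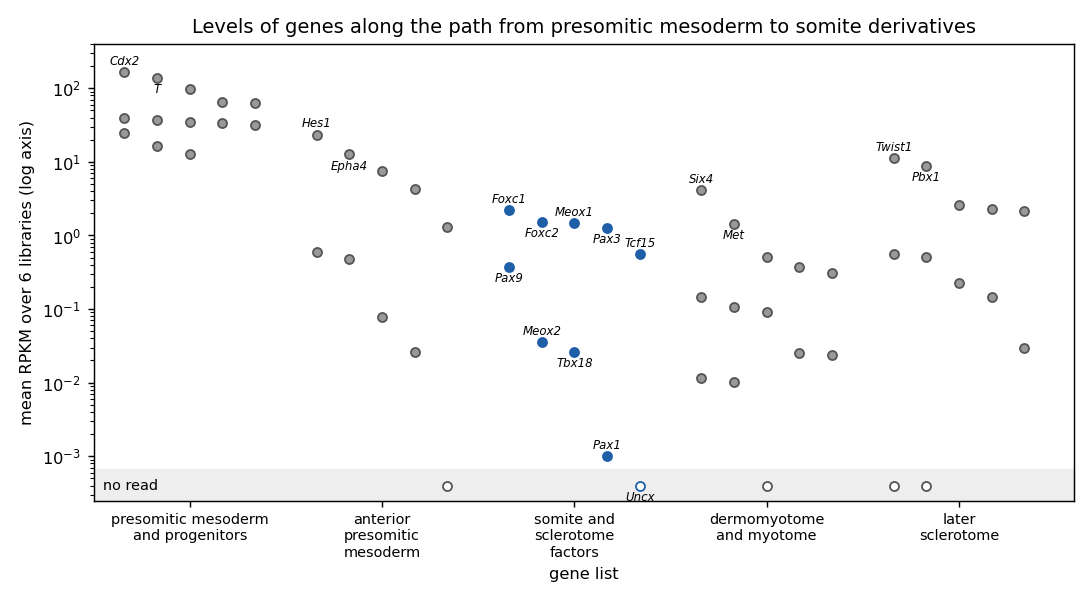
Mean RPKM over the 6 libraries (log axis) of single genes in 5 lists, from presomitic mesoderm to somite derivatives, with the 10 somite and sclerotome factors in blue and named. Open symbols in the grey band are genes without a read. The 13 presomitic genes lie above the 10 factors, whose highest is Foxc1 at 2.22 RPKM.

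Of 14 genes for signals that pattern somites, 13 were tested and 2 reached an unadjusted p under 0.05, with Bmp4 higher and Gli2 lower in MommeD43. Bmp4, a ligand that opposes sclerotome fate, averaged 27.4 ± 0.952 RPKM in WT against 30.8 ± 2.06 RPKM in the mutants (log2 fold change 0.17, adjusted p = 0.999, limma). Its groups did not overlap, as for 3.53% of all genes in that direction. Gli2, an effector of Hedgehog signalling, which induces sclerotome, had a log2 fold change of -0.19 (adjusted p = 0.999, limma), and its groups did not overlap either, as for 3.55% of all genes.

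Lists for other tissues that a tailbud can hold had 0 genes past an adjusted p of 0.05. In lateral and intermediate mesoderm, 11 of 11 genes had reads, and Hand1, a lateral mesoderm factor, led at 54.7 and 59.2 RPKM. Hindgut and notochord genes (6 of 6 with reads, led by the keratin Krt8 at 158 and 175 RPKM) summed to 167 to 227 RPKM in WT and 209 to 222 RPKM in MommeD43 libraries. Yolk sac genes such as Ttr, a carrier protein, had reads for 6 of 6 and summed to 130 to 268 RPKM in WT and 35.0 to 417 RPKM in MommeD43 libraries. MommeD43 replicate 1 was the highest of all libraries at 417 RPKM, and MommeD43 replicates 2 and 3 were the lowest at 49.2 and 35.0 RPKM. None of the 6 genes (0) had an unadjusted p under 0.05 (limma). Their part in the values of the members was not tested. The lists contain genes that more than 1 tissue expresses, and describe levels rather than cell numbers.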

How the data were processed

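RNA from 6 single tailbuds (100 ng each, stranded mRNA libraries per the labels) was sequenced by the authors. Per the study's methods and the submitters' processing notes, reads were trimmed with Trim Galore 0.4.4, mapped with HISAT2 2.0.5 to GRCm38.p6 and quantified in SeqMonk. The deposited table holds log2 RPKM, made by the authors from gene reads, exon length and library size. Columns of group means were not used, and 0 value columns had no sample.

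Of 35591 rows, 35555 matched GENCODE M21 by identifier, which gave exon lengths, and 49 repeats of an identifier were dropped, keeping the row with the highest mean. Genes without a read sit at the value of 0.9 read, and this level gave each library's total. Whole reads (within 0.02) made up 99.0% of the 105978 higher values. Genes were tested where at least 3 libraries reached the rate of 10 reads in a library of median size, with 15 reads in all. The level of a gene without a read depends on depth, so members below this filter were compared by reads.

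The genotypes were compared for autosomal genes by limma 3.58.1 in R 4.3.3 (two-sided, trended prior variance), taking the deposited log2 values as they are, with no pseudocount, and adjusted over 13617 genes. In simulated data for MommeD43 against WT over 13617 genes, 99.5% of 200 genes changed 2-fold were recovered with 8 calls among unchanged genes. With no change, 0 calls were made. The changed genes were drawn from genes above a minimum of expected reads, and all genes were given a common spread. Recovery of a 2-fold change at the read numbers and spread of the somite factors was not tested. Exact tests used scipy 1.17.1 and Python 3.11.15, and p-values measure the spread between these embryos. The floor of a library was taken as 3 reads.

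The members, lists and tests were chosen with earlier results of these data known, so no p over the list alone is given. All members were named, with, from each list, the most abundant gene, genes past an adjusted p of 0.05 and the gene with the smallest p where under 0.05. Further genes (Sox1, Sox2, Sox3, Pax6, T, Mesp2, Ripply2, Msx1, Foxd3, Gli2, Ttr) are markers or were named after their values were seen. Alternatives were other filters, pseudocounts of 0.1 and 1 RPKM, median-ratio scaling, voom on recovered reads, a sex term, a block for the replicate number, females alone and each library left out.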

Additional observations from a re-analysis of the deposited data

How the results depend on the processing

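Of the autosomal genes tested (13617 unless the filter was changed), 0 passed an adjusted p of 0.05 in each alternative except females alone, which gave 10 (1188 at an unadjusted p under 0.05), while the others gave 187 to 944 at that unadjusted p, with voom on recovered reads at 425. Somite factors past the threshold numbered 0 in every alternative run. At an unadjusted p under 0.05 there were 0 to 1 when each library was left out, the exception being Pax3 without MommeD43 replicate 2. The contrast of the male pair with the females, which has no spread among males, passed for 114 autosomal genes without a filter and 121 with voom, against 37, and for 0 members. With voom 1 member in place of 2 had an unadjusted p under 0.05 in it, Foxc2 going to 0.0592. Pax9 and Pax3 kept their sign in each alternative run. The log2 fold change of Meox1 (-0.026) was 0.036 with voom, and that of Tcf15 (0.19) was -0.072, and the cause was not tested. With females alone, which removes both males, Foxc1 was at -0.15 and Foxc2 at -0.25, and without the WT male alone they were at -0.094 and -0.18. The sex difference of Pax9 (-0.18) was 0.10 with voom. Leaving out each library, the log2 fold changes ranged from -0.11 to 0.12 for Meox1, from -0.16 to 0.44 for Tcf15, from -0.094 to 0.30 for Foxc1, from -0.18 to 0.33 for Foxc2, from 0.21 to 0.86 for Pax9 and from -0.55 to -0.10 for Pax3, and the Foxc1 to Foxc2 ratio from -0.064 to 0.10. With a filter of 1 RPKM, Tcf15 and Pax9 were not tested. By the labels, replicate number 1 joins embryos of a single mother and sex, while numbers 2 and 3 join females of different mothers. Deviations from group means correlated at -0.03, 0.17 and -0.17 for numbers 1, 2 and 3. Not every sample correlated best with its own number. The study describes its embryos as 3 somite-matched pairs, and its text does not say which embryos made a pair. With so few samples per group these correlations cannot decide which samples were paired. The main fit did not use pairs. With the replicate block, 0 genes passed and 307 had an unadjusted p under 0.05, against 327. Tcf15, Pax9 and the 4 members below the filter are limited by depth.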

Other observations

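Beside the members, a pair of genes from the lists, chosen with their values in view, varied widely between embryos. Mesp1, a factor of nascent and anterior presomitic mesoderm, was at 2.42, 0.598 and 0.142 RPKM in WT replicates 1, 2 and 3, and at 0.930, 0.580 and 3.12 RPKM in MommeD43 replicates 1, 2 and 3. The groups overlapped, and the log2 fold change was 1.01 ± 0.99 (SE), with an unadjusted p of 0.333 (limma). Scx, a factor of tendon progenitors next to the sclerotome, had 21, 14 and 12 reads in WT and 0, 24 and 4 reads in MommeD43 libraries. Each MommeD43 library lay below each WT library in RPKM, with 0.286, 0.295 and 0.360 against 0, 0.253 and 0.152 RPKM, as for 3.55% of all genes tested in that direction, and the unadjusted p was 0.0554 (limma).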
